A study of Phyllostachys edulis with 2 samples.

Results

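Receptor-like kinases other than BRI1, the brassinosteroid receptor, were examined in rhizome lateral buds of Moso bamboo (Phyllostachys edulis) at early shoot stage against germination stage. Members were the transcripts whose protein description named a receptor kinase, a receptor-like protein, a leucine-rich repeat (LRR), a wall-associated kinase, CLAVATA, ERECTA or SERK, without those that named BRI1, brassinosteroid, disease resistance, NBS, cytokinin or ethylene. They were 50 of the 148492 transcripts and came from 25 of the 85391 loci, a locus being the group of transcripts that the deposited transcript names place together. The exclusion removed 20 further transcripts of 5 loci. Reads of the matching transcripts were summed per locus, and the loci were grouped by the subfamily that the description names.

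Both groups were wild type plants, sampled underground from lateral buds that were pooled before RNA extraction. Early shoot buds and germination buds differ in bud length, and each stage was sequenced as 1 library. There was therefore no replicate check of any difference, no p-value is given, and the 95% intervals (exact, Clopper-Pearson) cover counting error only. A pool of whole buds holds many cell types, and fewer cells of a type cannot be told apart from less RNA per cell.

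Receptor-like kinases are membrane proteins with an outer domain that meets a ligand or the cell wall, a segment that crosses the membrane, and a kinase domain inside the cell. The outer domain names the subfamily: LRR domains often bind peptides or steroids, LysM domains bind chitin-related sugars, wall-associated kinases bind pectin in Arabidopsis, and S-domain kinases take their name from self-incompatibility in Brassica. In meristems and growing organs of Arabidopsis and the grasses, kinases of this family pass on signals that set the number of stem cells, cell expansion and wall sensing.

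The deposited count table summed to 7878826 reads for early shoot and 4481221 reads for germination; these are the reads assigned to listed transcripts and fewer than the mapped reads of the libraries. A count of 0 allows up to 3 reads, which is 0.381 RPM (reads scaled to a table total of 1000000) in early shoot and 0.669 RPM in germination. Descriptions of bud and meristem genes, mostly knotted1-type homeobox proteins, came from 6 loci and summed to 308 RPM in early shoot and 312 RPM in germination. The sum held differences both ways, since 2 of the 6 loci had a value above 0, 2 below 0 and 2 at 0. The value farthest above 0 was that of a cyclin B2-1, which acts at entry into mitosis, with 28.8 RPM in early shoot and 4.02 RPM in germination. The value farthest below 0 was that of the knotted-1-like 2 protein, with 68.3 RPM in early shoot and 137 RPM in germination. Green leaf descriptions, again of 6 loci, summed to 50.5 RPM in early shoot and 41.3 RPM in germination, and the secondary wall list matched 1 locus with 1 read in each library. The part of these genes in the results below was not tested.

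To ask whether the members as a group differed between the stages, the reads of all 25 loci were summed. These include 4 LRR proteins with no kinase named and 1 endoplasmic reticulum retention receptor, described below. The sum was 4169 reads in early shoot, 529 RPM (interval 513 to 545), and 2216 reads in germination, 495 RPM (474 to 516). The log2 ratio of early shoot over germination was 0.10 with an interval from 0.02 to 0.17. Its direction depended on which transcripts were summed, since all transcripts of the 25 loci, also those whose own description did not match, gave -0.094. The sum of the matching transcripts hid opposite differences at single loci, because the most read locus, Locus_400, went the other way and held 20.9% of the member reads in early shoot (interval 19.7 to 22.2%) and 38.8% in germination (36.8 to 40.9%). Without Locus_400 the summed log2 ratio was 0.47, with an interval from 0.38 to 0.56. The 20 loci described as receptor kinases, a set formed after the data were seen, gave a log2 ratio of -0.05 (interval -0.13 to 0.04). Without Locus_400 that set gave 0.42, with an interval from 0.31 to 0.54.

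No member locus reached the calling threshold in either direction. The threshold was set on a G-fold-like value, the 0.01 quantile nearest 0 of the log2 ratio given the counts, which is 0 where the data allow both directions. A locus was called beyond 1.0 in either direction if its RPKM (reads scaled by transcript length and table total) was above 1.0 in both libraries, which 24 of the 25 loci passed. The count called higher in early shoot was 0, against 1.5% of all loci tested, and the count called lower in early shoot was 0, against 3.59% of all loci tested. These shares cover all loci, which were mostly less deeply read than the members. Over the 31619 loci with at least 20 reads that passed the cutoff, 1035 were called higher in early shoot and 2357 lower. The background also took all transcripts of each locus, and summed in that way 0 members were called higher and 1 lower. At such shares, a count of 0 or 1 among 24 loci is not far from the background. Under the other settings tried, 0 to 5 loci were called in each direction, with 5 reached in each direction by the plain log2 ratio in place of the quantile and, for loci lower in early shoot, also by a threshold of 0.5.

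A weaker bar gave the balance of directions. The value was above 0 for 8 member loci, against 10.8% of all loci tested, below 0 for 5 member loci, against 12.3% of all loci tested, and at 0 for 11. Both the 8 and the 5 include a pair of loci with a shared best match, which cannot be counted as independent. Members were longer and more deeply read than most loci, with a median of 70 reads over both libraries against 13 for all loci and a median longest transcript of 1464 bp against 240 bp. Over the 22 members with at least 20 reads, which include every one of these 8 and 5 loci, the background was 23.1% above 0 and 21.9% below 0. The background took all transcripts of each locus, and with all transcripts of the member loci summed the members' counts were again 8 above 0 and 5 below 0. After adding 1 read to each count, the median log2 ratio was 0.19 over the members and -0.12 over all loci. With at least 20 reads, it was 0.32 over the members and 0.06 over all loci. Among the 12 member loci whose longest matching transcript had at least 1000 bp, 9 had a value apart from 0, and among the 13 with shorter transcripts 4 had one.

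**Figure D1:**
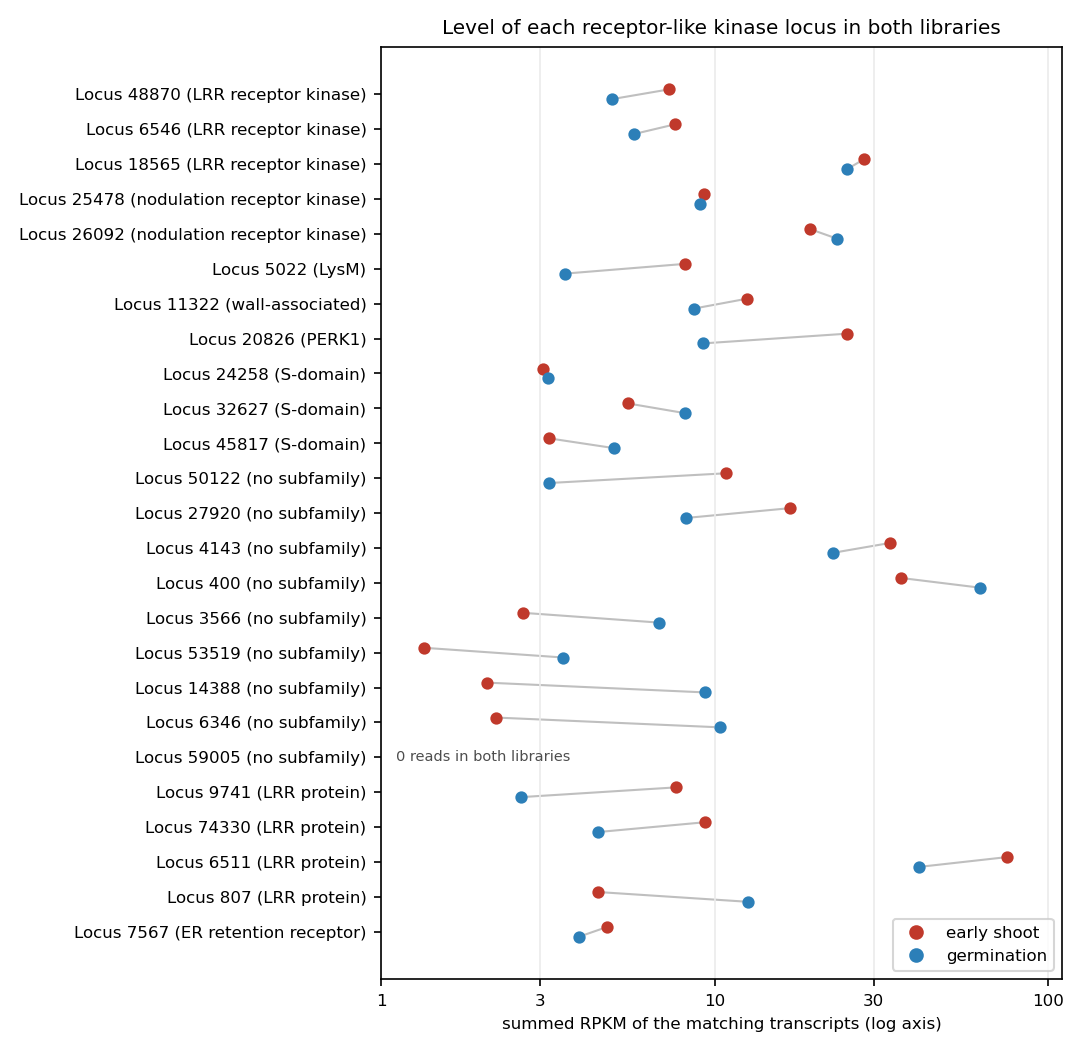
Summed RPKM of the matching transcripts of each of the 25 member loci (log axis), with early shoot in red above germination in blue. Each point is 1 library, so there are no error bars. The span runs from 1.34 RPKM for Locus_53519 to 75.01 RPKM for Locus_6511 in early shoot, and Locus_59005 had 0 reads in both libraries.

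On the per-length scale of RPKM, the levels of the 24 loci that passed the cutoff had a median of 7.92 in early shoot and 8.20 in germination. The 5 loci with the most reads, which were Locus_400, Locus_6511, Locus_4143, Locus_26092 and Locus_11322, together held 72.1% of the member reads in early shoot (interval 70.7 to 73.5%) and 75.6% in germination (73.8 to 77.4%). The best protein match was from rice for 15 loci, from wheat for 4, from maize for 4 and from Moso bamboo itself for 2. No description held the names CLAVATA, ERECTA, SERK, FERONIA, THESEUS, CRINKLY, HAESA, HAIKU or phytosulfokine, so none of these receptors of known role could be followed among the members by those names. Kinases named in full after somatic embryogenesis, from which SERK takes its name, matched outside the members and are given below.

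The 3 LRR receptor kinases, the subfamily to which the peptide receptors of meristems belong in other plants, did not stand apart from 0 one by one. Locus_6546, a putative LRR receptor-like kinase of rice, had 110 reads in early shoot and 47 reads in germination, for a log2 ratio of 0.41 (interval -0.09 to 0.94). Locus_48870, a putative LRR receptor kinase of rice, had 47 reads in early shoot and 18 reads in germination, for a log2 ratio of 0.57 (interval -0.24 to 1.44). Locus_18565, an LRR transmembrane protein kinase 1-like protein of maize, had 57 reads in early shoot and 29 reads in germination, for a log2 ratio of 0.16. Each of the 3 counting intervals held 0. Their summed log2 ratio was 0.37, with an interval from 0.02 to 0.74, just above 0.

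The nodulation receptor kinases matched maize proteins of that name. In legumes the kinase so named is needed for root symbiosis, and grasses, which form no nodules, carry relatives of it. Locus_26092 had 219 reads in early shoot and 150 reads in germination, and Locus_25478 had 45 reads in early shoot and 25 reads in germination. Their log2 ratios of -0.27 (interval -0.57 to 0.04) and 0.03 (-0.70 to 0.80) both had intervals that held 0.

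PERK1, the LysM kinase and the wall-associated kinase were each matched at 1 locus, with values above 0 and under the threshold. PERK1 belongs to the proline-rich extensin-like receptor kinases, which are associated with the cell wall in Brassica. Its locus, Locus_20826, had 301 reads in early shoot and 63 reads in germination, or 25.0 RPKM in early shoot and 9.20 RPKM in germination. The log2 ratio was 1.44 with an interval from 1.05 to 1.86, a ratio of 2.72. Its G-fold-like value of 0.98 was the highest of the members and lay just under the threshold of 1.0. Both transcripts went the same way, with 153 and 148 reads in early shoot against 30 and 33 reads in germination.

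The LysM receptor-like kinase matched a rice protein of the group that binds chitin fragments in rice and Arabidopsis. This locus, Locus_5022, had 93 reads in early shoot and 23 reads in germination, 8.16 RPKM in early shoot and 3.55 RPKM in germination. Its log2 ratio was 1.20 with an interval from 0.53 to 1.93, and its value was 0.44. The other 10 transcripts placed in the locus matched no protein or a hypothetical one, and with them the log2 ratio was 0.80 over 531 reads in early shoot and 174 reads in germination. The wall-associated kinase, Locus_11322, had 260 reads in early shoot and 107 reads in germination, and its log2 ratio of 0.47 (interval 0.14 to 0.81) gave a value of 0.08, barely above 0. Its 4 matching transcripts were not alike, since transcript 4 had 69 reads in early shoot and 14 in germination while transcript 2 had 46 reads in early shoot and 29 in germination.

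The 3 S-domain receptor kinases were among the least read members. ARK1, a receptor kinase first named in Arabidopsis, was Locus_24258 with 17 reads in early shoot and 10 reads in germination. The B-lectin receptor kinase was Locus_32627 with 13 reads in early shoot and 11 reads in germination, and the S-receptor kinase homolog 2 was Locus_45817 with 9 reads in early shoot and 8 reads in germination. Their summed log2 ratio was -0.39 with an interval from -1.12 to 0.36. At this depth the interval of the sum is wide, and no difference between the stages was detectable.

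**Figure D2:**
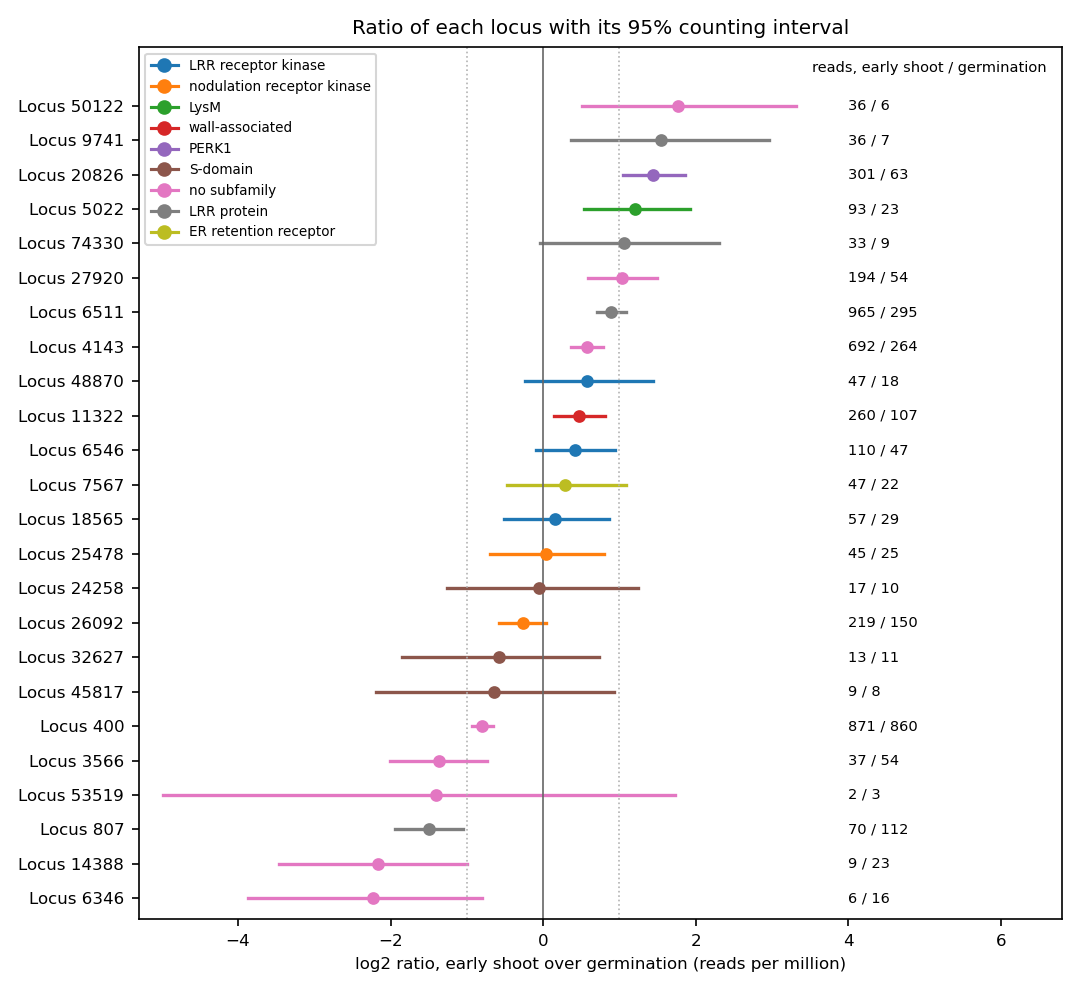
Log2 ratio of early shoot over germination in RPM for the 24 member loci with reads, with exact 95% counting intervals, coloured by subfamily. The reads in early shoot and in germination stand at the right, the solid line marks 0 and the dotted lines mark -1 and 1. The interval lay above 0 at 8 loci and below 0 at 5 loci, and it was widest at Locus_53519, which had 2 reads in early shoot and 3 in germination.

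Receptor kinases with no subfamily in the description were the largest group, with 9 loci, and they split in both directions. Of them, 3 had a value above 0, 4 had a value below 0 and 1 was at 0, while Locus_59005 had 0 reads in both libraries and no ratio can be given. The summed log2 ratio was -0.29 with an interval from -0.39 to -0.18, but without Locus_400 it was 0.40, so that the direction of this sum rested on that locus.

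Locus_400, described as a putative receptor-like kinase with alternative splicing in rice, was the most read member. It had 871 reads in early shoot and 860 reads in germination, which is 36.2 RPKM in early shoot and 62.6 RPKM in germination on the scale that allows for length and depth. Its log2 ratio was -0.80 with an interval from -0.93 to -0.66, and its value was -0.63. Each of its 4 matching transcripts was lower in early shoot, with log2 ratios from -1.05 to -0.62. With the other 8 transcripts of the locus, of which 4 matched a predicted protein, the log2 ratio was -0.74.

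Further loci lower in early shoot had wheat proteins as their best match. Locus_3566 (Ser/Thr receptor-like kinase) had 37 reads in early shoot and 54 reads in germination, for a log2 ratio of -1.36 (interval -2.0 to -0.73) and a value of -0.65. Locus_14388, with the same best match as Locus_3566, had 9 reads in early shoot and 23 reads in germination, for a log2 ratio of -2.17 (-3.46 to -1.0) and a value of -0.89. Locus_6346 (receptor kinase) had 6 reads in early shoot and 16 reads in germination, for a log2 ratio of -2.23 (-3.87 to -0.80) and a value of -0.68. Each of these 3 loci was lower in early shoot beyond counting error, on few reads. Locus_3566 and Locus_14388 share a best match, so they cannot be counted as independent, and whether they are pieces of a single gene was not tested.

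Locus_27920 and Locus_50122 shared a best match too, a putative receptor protein kinase of Moso bamboo itself, and both were higher in early shoot. Locus_27920 had 194 reads in early shoot and 54 reads in germination, 16.8 RPKM in early shoot and 8.23 RPKM in germination, for a log2 ratio of 1.03 (interval 0.59 to 1.49) and a value of 0.52. Locus_50122 had 36 reads in early shoot and 6 reads in germination, for a log2 ratio of 1.77 (0.51 to 3.31) and a value of 0.37. The larger ratio thus belonged to the locus with fewer reads, and the intervals of the pair overlap. As they share a best match, Locus_27920 and Locus_50122 cannot be counted as independent either, and whether they are pieces of a single gene was not tested.

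Locus_4143, a receptor-like protein kinase-like protein of rice, had 692 reads in early shoot and 264 reads in germination, 33.4 RPKM in early shoot and 22.6 RPKM in germination. Its log2 ratio was 0.58 with an interval from 0.37 to 0.79, and its value was 0.33. The remaining locus of the group with reads, Locus_53519, had 2 reads in early shoot and 3 reads in germination, too few for a direction.

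LRR proteins whose description names no kinase were counted as members by the LRR term and are described apart. LRR domains also occur in receptor-like proteins that lack a kinase and in proteins inside the cell. Locus_6511, an LRR family protein of rice, had the highest early shoot level of all members, with 965 reads in early shoot and 295 reads in germination, 75.01 RPKM in early shoot and 41.0 RPKM in germination. Its log2 ratio was 0.90 with an interval from 0.71 to 1.09, and its value was 0.67.

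The other 3 LRR proteins were spread. Locus_9741, the LRR-containing protein 40 of maize, had 36 reads in early shoot and 7 reads in germination, for a log2 ratio of 1.55 (0.36 to 2.96) and a value of 0.22. The other 6 transcripts of Locus_9741 matched a hypothetical protein of sorghum, and all 7 together had 658 reads in early shoot and 159 in germination, for a log2 ratio of 1.23 and a value of 0.94. Locus_74330, an LRR protein of wheat, had 33 reads in early shoot and 9 reads in germination, for a log2 ratio of 1.06 whose interval, from -0.03 to 2.31, held 0.

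Locus_807, a putative LRR protein of rice, was the member with the G-fold-like value farthest below 0. It had 70 reads in early shoot and 112 reads in germination, 4.48 RPKM in early shoot and 12.6 RPKM in germination, for a log2 ratio of -1.49 (interval -1.94 to -1.05). The value of -0.98 fell just short of the threshold. Summed over all 10 transcripts of the locus, of which 7 matched the rice gene Os10g0572300 and 2 matched none, it had 600 reads in early shoot and 972 reads in germination, and the value of -1.34 passed the threshold. The summed log2 ratio of the 4 LRR proteins was 0.57 with an interval from 0.41 to 0.73. The direction of that sum rested on 1 locus and on the choice of transcripts, since it was -0.70 without Locus_6511 and -0.11 with all transcripts of the 4 loci.

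The receptor-like term of the search also took in 1 protein that is no kinase. Locus_7567, an ER lumen protein-retaining receptor-like protein, belongs to the receptors that return proteins to the endoplasmic reticulum. It had 47 reads in early shoot and 22 reads in germination, for a log2 ratio of 0.28 (interval -0.48 to 1.08).

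**Figure D3:**
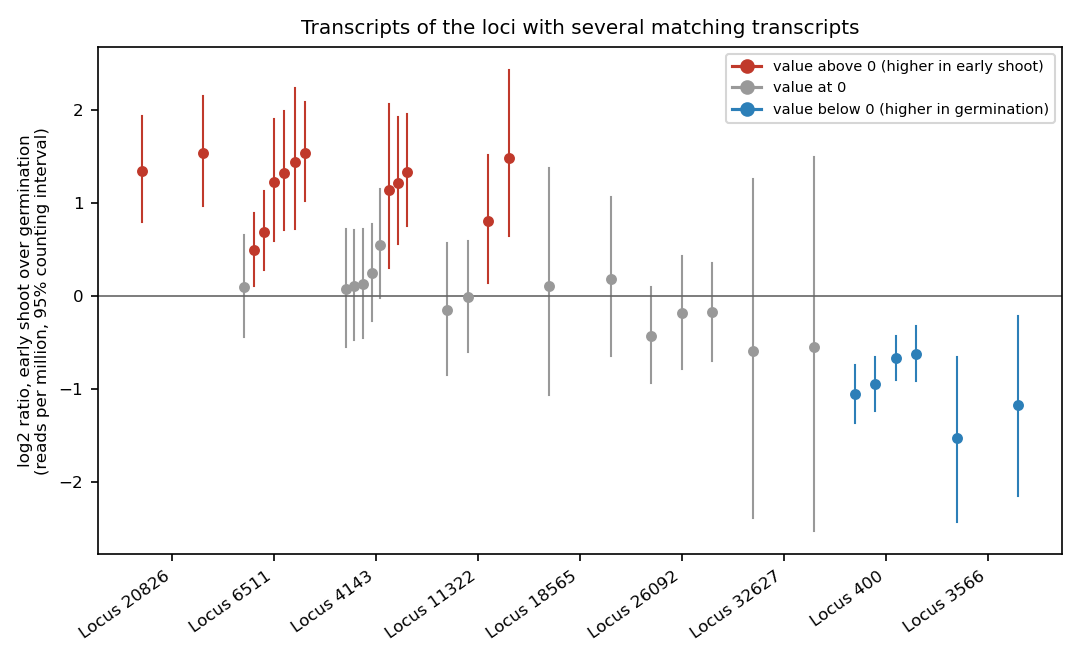
Log2 ratio of early shoot over germination in RPM for each matching transcript of the 9 loci that have several, with exact 95% counting intervals, coloured by whether the G-fold-like value was above 0 (red), at 0 (grey) or below 0 (blue). The transcripts of a locus with a value apart from 0 lie on the same side, as at Locus_400 with 4 of 4 below 0 and Locus_6511 with 6 of 7 above 0.

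Whether transcripts of 1 locus moved in opposite directions was asked at the 9 loci with several matching transcripts. At 0 of the 9 did values lie on both sides of 0, and over all 50 member transcripts 17 values were above 0, 9 below 0 and 24 at 0. Sizes nonetheless differed within a locus. Locus_4143 had 8 transcripts with log2 ratios from 0.08 to 1.33, of which 3 had a value above 0. Its 5 transcripts of equal length, 2686 bp, had from 58 to 133 reads in early shoot and from 15 to 39 reads in germination, and the variance of these counts was 8.65 times the mean in early shoot and 3.22 times the mean in germination. How reads were divided among transcripts of a locus is not given in the sources used here, so counts of single transcripts are uncertain. Locus_6511 had 7 transcripts with log2 ratios from 0.10 to 1.54, each of them higher in early shoot by its ratio.

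The members were set beside genes that act with receptor kinases, taken by description. BRI1, counted with its tomato relative the systemin receptor SR160, had 8 loci with a summed log2 ratio of 1.09 (interval 0.97 to 1.21). By locus, the 5 named after brassinosteroid each had a value above 0, and the 3 named SR160 each had a value below 0. One of these 3, Locus_16982, had 2 reads in early shoot and 41 reads in germination, and it did not pass the RPKM cutoff because of its early shoot level of 0.35 RPKM. BAK1, the coreceptor that pairs with BRI1 and with other LRR kinases in Arabidopsis, had 4 loci with 642 reads in early shoot and 212 reads in germination, for a summed log2 ratio of 0.78 (0.56 to 1.02). By the transcripts of that name, only Locus_5953 among the 4 had a value apart from 0. It had 397 reads in early shoot and 73 reads in germination and a value of 1.21. These sums were farther above 0 than that of the 25 members, and their intervals did not overlap its interval of 0.02 to 0.17. Against the members without Locus_400, with an interval from 0.38 to 0.56, that of BAK1 overlapped at its lower edge and that of BRI1 did not. The BAK1 and BRI1 sums, however, each kept their own most read locus, so this comparison is not like for like for either. In BAK1 that locus was Locus_5953, with 397 of the 642 reads in early shoot and 73 of the 212 in germination. In BRI1 it was Locus_10156. Locus_10156 held 1762 of the 2652 BRI1 reads in early shoot and 373 of the 709 in germination. Its value was 1.24, and it was the only BRI1 locus called.

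The only peptide ligand found by name was RALFL33, of the RALF peptides that bind FERONIA-type receptors in Arabidopsis. It was Locus_18716, with 134 reads in early shoot and 43 reads in germination, for a log2 ratio of 0.83 (0.32 to 1.36). ROP GTPases, switches that act downstream of receptor kinases in pollen and root hairs, had 3 loci with a summed log2 ratio of 0.56 (0.40 to 0.72), of which 2 had a value above 0 and 0 below.

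Respiratory burst oxidases, which make superoxide at the membrane and are activated by receptor kinases in Arabidopsis immunity, were lower in early shoot at all 4 loci. They had 606 reads in early shoot and 917 reads in germination, for a summed log2 ratio of -1.41 (-1.56 to -1.26), and 3 of the 4 were called. The largest difference was at Locus_1861, a respiratory burst oxidase D, with 11 reads in early shoot and 163 reads in germination. Kinases named after somatic embryogenesis but not as receptors were matched at 2 loci, with 146 reads in early shoot and 105 in germination. Locus_14643 had a value of 0. Locus_2622, also a BAK1 locus by another transcript, had 41 reads in early shoot and 55 in germination under this name, for a value of -0.55. CLE peptides, WUSCHEL, receptor-like cytoplasmic kinases, the phosphatases POLTERGEIST and KAPP, ROP exchange factors and plant U-box proteins matched 0 loci by these names. Transcripts with kinase in the description that the member search did not match, whatever kind of kinase was named, came from 105 loci. This set was not separate from the others. It held a transcript of Locus_26092, a member by its other transcripts, and the 2 somatic embryogenesis loci. Its summed log2 ratio was -0.17, and of the 101 loci that passed the cutoff 28 had a value above 0 and 31 below 0.

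**Figure D4:**
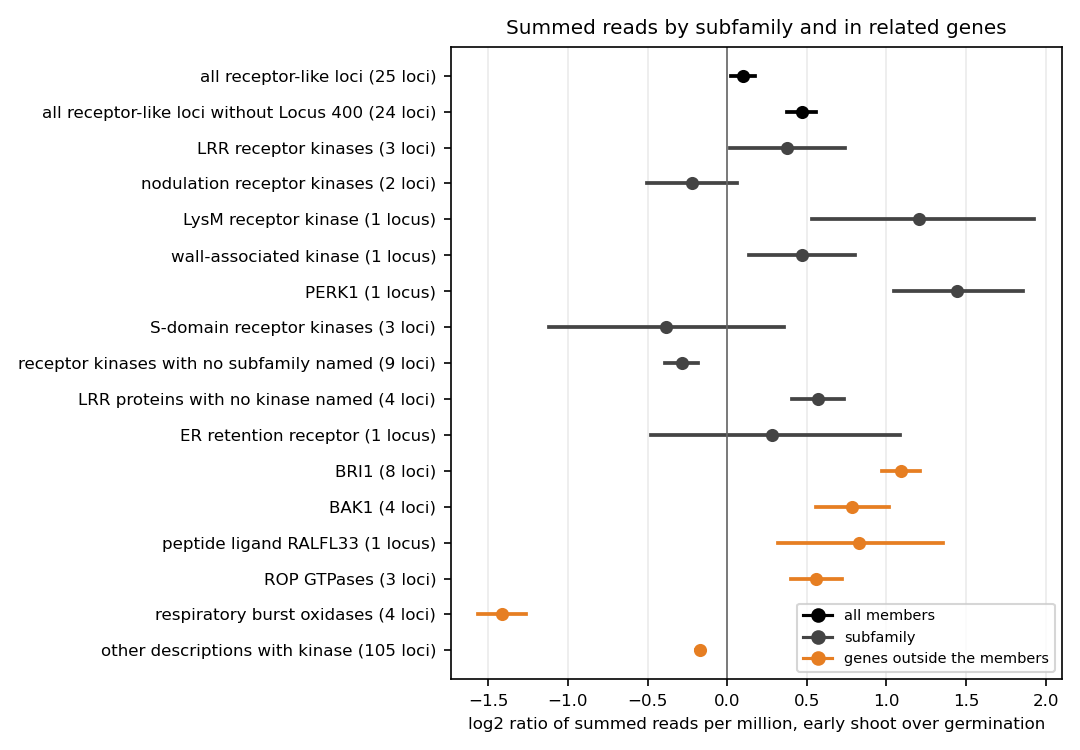
Log2 ratio of summed reads in RPM, early shoot over germination, with exact 95% counting intervals. Shown are all member loci (black), each subfamily (grey) and transcripts outside the members (orange), with the number of loci beside each name. PERK1 at 1.44 and the LysM kinase at 1.20 lie farthest to the right among the subfamilies, and the respiratory burst oxidases at -1.41 lie farthest to the left.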

How the data were processed

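For each library the authors deposited raw read counts per transcript, not normalized, with the transcript length, a best protein match and a transcript RPKM; the authors' RPKM follows from count, length and table total. The submitters' processing notes name TopHat2 2.0.8b and Cufflinks 2.2.1. The study merged overlapping read pairs and mapped them to the draft bamboo genome, while the transcript names look like those of an assembly; the counting program is not given in the sources used here.

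Counts were scaled by the table totals, and the G-fold-like value was calculated from a beta posterior with 1 read added to each count. It is modelled on the program Gfold that the study used, without its own normalization. Python 3.11.15, pandas 2.3.3, NumPy 2.4.6, SciPy 1.17.1 and matplotlib 3.10.9 were used, and edgeR 4.0.16 (R 4.3.3) gave the TMM scaling. The calculation was tested on simulated counts that held only the counting error it assumes. That test could not show how it fares with spread between samples. Named loci were those called, the 5 most read, those with at least 100 reads that name a receptor of known role (0 here), and in each subfamily the most read and the farthest from 0; the remaining members were added after their values were seen. The members, lists and subfamilies were chosen with earlier results of these data known. Alternatives were other scalings, other ways of summing transcripts, other filters, quantiles and thresholds, thinning of the early shoot library, and sums without the most read locus.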

Additional observations from a re-analysis of the deposited data

How the results depend on the processing

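No member locus with a value apart from 0 took the opposite sign under any setting tried. The value did fall to 0 for Locus_11322 with its most abundant matching transcript and for Locus_9741 with the thinned early shoot library. The 11 loci at 0 had no direction to reverse. Loci called higher in early shoot, 0 as reported, were 1 with upper quartile scaling, 1 with the 0.05 quantile, 3 with a threshold of 0.5 and 5 with the plain log2 ratio. Loci called lower in early shoot, 0 as reported, were 1 with median ratio scaling, 1 with all transcripts of the locus, 3 with the 0.05 quantile, 5 with a threshold of 0.5 and 5 with the plain log2 ratio. When all transcripts of the member loci were summed, the direction turned for all members, at a log2 ratio of -0.094, and for LRR proteins with no kinase named, at -0.11, and the log2 ratio was -0.45 for receptor kinases with no subfamily named. Without the most read locus, the direction turned for receptor kinases with no subfamily named, at 0.40, and for LRR proteins with no kinase named, at -0.70. The sign also changed for nodulation receptor kinases, at 0.03, and for receptor kinases only, at 0.42, but the intervals of their full sums held 0. The sign did not change for all members, at 0.47, LRR receptor kinases, at 0.33, or S-domain receptor kinases, at -0.60. For both ways of summing, the change follows from the reads that enter or leave the sum. Upper quartile scaling gave 0.0035 for receptor kinases only. Other scalings moved all log2 ratios by -0.03 to 0.05. Loci with a value above 0 numbered 7 to 9 and those with a value below 0 numbered 5 to 6 under the alternatives. With 1 library per stage, no setting measures the spread between plants, and 15 of the 25 loci had under 100 reads over both libraries. No paired analysis was possible because each stage has 1 library.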
